A study of Mus musculus with 4 samples.

Results

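The Eps8 family of actin regulators was examined in mouse sciatic nerve as Eps8, Eps8l1, Eps8l2 and Eps8l3, which are 4 of the 50593 genes in an RNA-sequencing table. The 4 genes were taken by symbol, and the family was selected on its measured values, because Eps8l1 was among the genes that were most raised in nerve labelled HSF V30M. The study asked how the nerve's immune response differs in a mouse model of hereditary transthyretin amyloidosis, in which mutant transthyretin deposits in peripheral nerve. Mice of strain 129S1/SvImJ were sampled at 6 months of age, and the labels give 2 mice in each of 2 groups, 4 libraries in all. The study's methods name the background only as Sv/129. The HSF V30M mice carry a human TTR transgene with the V30M mutation on a background without endogenous Ttr. Both groups carry a heterozygous deletion of Hsf1, and the HSF WT controls carry no such transgene. The promoter of the transgene is not given in the sources used here, and the study's methods state n = 4 without saying whether this is per group.

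Expression was given as FPKM, fragments per kilobase of transcript after scaling to library depth, with 1 value per gene for each group. There were no values per mouse, so no spread between mice could be computed here, and every difference below lacks a replicate check. The test columns of the authors were not used. The table gives no read totals, but genes with a single transcript take low values that are whole multiples of the worth of 1 fragment. For nerve labelled HSF WT, this held to within 2% for 98.0% of 1462 such values. The worth was itself found on single-transcript genes, so this share is not an independent check. The values labelled HSF V30M, mostly rounded to 2 decimals, were not checked in this way. Fragment numbers and depths given for that group rest on worths without such a check. The libraries labelled HSF WT differed 1.35-fold in depth and those labelled HSF V30M 1.18-fold. Of the deeper library in each group, that labelled HSF V30M had 1.23-fold the depth. Numbers of fragments below are ranges over annotated transcripts and over both libraries of a group, and the intervals made from them are 95% Clopper-Pearson intervals that cover counting error only. They describe values by which the family was chosen, hold no spread between mice and assume a single transcript, so chance is not excluded by them.

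The gene targeted in the design was read first. Mouse Ttr, which encodes transthyretin, had an FPKM of 6.10 in nerve labelled HSF V30M, where it is null by design, about 131 to 154 fragments. It is listed at 0 in nerve labelled HSF WT, where 3 fragments would have given 0.198. Reads of the human transgene cannot be told apart from reads of mouse Ttr in this table, so the value in nerve labelled HSF V30M does not show whether the allele was null, and the 0 stands in the group in which no Ttr deletion is stated. The genotypes are therefore not read from these values, and the groups are called by their labels throughout. Hsf1, the heat shock transcription factor that is heterozygous in both groups by design, had an FPKM of 7.94 in nerve labelled HSF V30M and 15.0 in nerve labelled HSF WT. It was thus 1.88-fold lower in nerve labelled HSF V30M, past the fold of 1.5, although the design gives the same Hsf1 genotype to both groups. The Schwann cell markers that define the labelled tissue were present in both groups, among them the myelin gene Mbp at an FPKM of 3854 in nerve labelled HSF V30M and 3441 in nerve labelled HSF WT.

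Eps8 was found as a substrate of the epidermal growth factor receptor. It caps the growing barbed ends of actin filaments, bundles filaments together with the membrane-bending protein Baiap2, and joins Abi1 and Sos1 in a complex that switches on the small GTPase Rac. Eps8 and Eps8l2 are best known from the tips of stereocilia in the inner ear, and Eps8 also from intestinal microvilli, where they set the length of actin protrusions. Eps8l1 and Eps8l3 were named for their sequence similarity to Eps8, and Eps8l1 and Eps8l2 share with Eps8 the ability to activate Rac. In peripheral nerve, Rac and actin turnover are needed when Schwann cells sort and wrap axons.

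Of the 4 members, 3 had an FPKM of at least 1 in either group, and these 3 were higher in nerve labelled HSF V30M than in nerve labelled HSF WT, by different amounts. Eps8l1 was 44.0-fold higher, Eps8l2 1.52-fold and Eps8 1.48-fold, while Eps8l3 was at the limit of detection in both groups. With a fold of at least 1.5 on FPKM and a minimum FPKM of 1 in whichever group was higher, 2 members were past the fold in this direction and 0 in the other. Of the 16579 genes with an FPKM of at least 1 in either group, 2171 (13.1%) were past the fold in the same direction and 2130 (12.8%) in the opposite one. Among the 13054 protein-coding genes, 1086 were higher (8.32%) and 1086 were lower (8.32%). Because the family was chosen by these values, nothing is read from the member count. Eps8l2 lies just inside the fold of 1.5 and Eps8 just outside it, so the count separates members whose values hardly differ in fold.

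**Figure D1:**
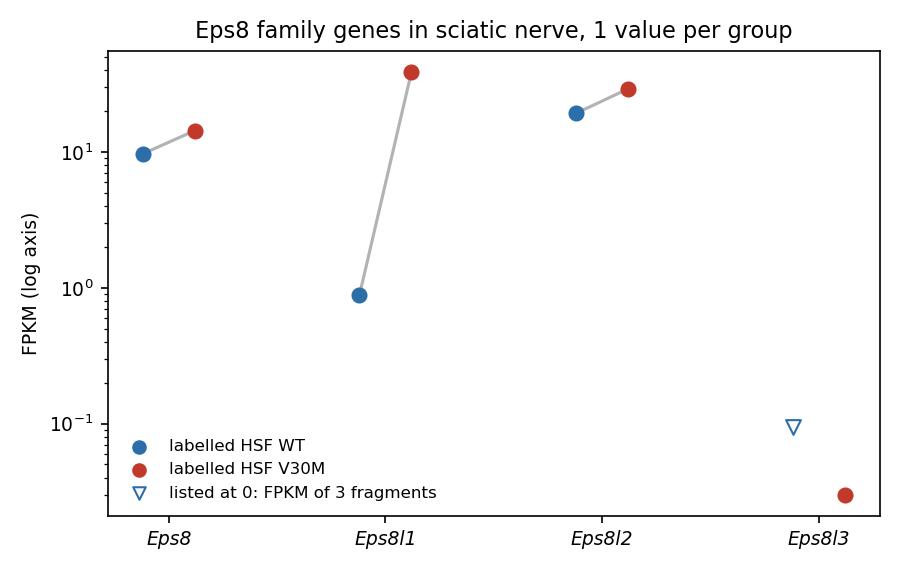
FPKM of the 4 Eps8 family genes on a log axis, 1 point per gene and group, with a line joining the groups labelled HSF WT and HSF V30M. Eps8l1 goes from the lowest of the 3 detected members in nerve labelled HSF WT (0.888) to the highest in nerve labelled HSF V30M (39.1). The open triangle marks the FPKM that 3 fragments would give for Eps8l3, which is listed at 0 in nerve labelled HSF WT.

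Eps8l1 (ENSMUSG00000006154) lies on chromosome 7 of GRCm38, plus strand, from 4460674 to 4480487, with 14 transcripts of 249 to 3868 bases. Its FPKM was 39.1 in nerve labelled HSF V30M and 0.888 in nerve labelled HSF WT, a difference of 38.2. The log2 ratio, HSF V30M divided by HSF WT with 1 added to both values, was 4.41, a scale that understates the change of low genes. Nerve labelled HSF WT thus held little Eps8l1 RNA, while nerve labelled HSF V30M held more of it than of any other member. With 1 value per group, a difference carried by both mice and a difference carried by a single mouse cannot be told apart. In bulk tissue, more cells that express Eps8l1 and more RNA per cell cannot be told apart.

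The number of fragments behind Eps8l1 depends on the transcript they came from, which a value per gene does not show. On the 2 transcripts in the consensus coding set, of 2522 and 3868 bases, the values stand for about 1970 to 3659 fragments in nerve labelled HSF V30M and 32 to 68 in nerve labelled HSF WT. From the fewest of these, the counting interval of the 44.0-fold difference was 30.8 to 64.0. If all fragments had come from the shortest transcript of at least 400 bases, which has 412, they would number 180 and 3, and the interval would be 14.3 to 208. Another 3 transcripts are shorter than 400 bases, for which no fragment number was computed. Which of the 14 transcripts was read was not tested.

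Bases ahead of the gene start are shown for Eps8l1 and Eps8l2, the members past the fold. They come from RefSeq promoter entries of GRCm38.p6, in which 3 of the 4 members were matched, all but Eps8. Each stretch begins 250 bases before the RefSeq start and ends where the first annotated exon of the member begins. The Eps8l1 stretch is chr7:4460447-4460673 on the plus strand, 227 bases that lie in an intron of the antisense gene Gm15494, and it is the first of 3 entries for Eps8l1. The Eps8l2 stretch is chr7:141338752-141338879 on the plus strand, 128 bases that lie in no annotated gene. Capitals mark every match, on either strand, to 5 motifs: the TATA box TATAAA, the GC box GGGCGG, the CCAAT box CCAAT, the E-box CANNTG and the heat shock element core GAANNTTC.
Eps8l1: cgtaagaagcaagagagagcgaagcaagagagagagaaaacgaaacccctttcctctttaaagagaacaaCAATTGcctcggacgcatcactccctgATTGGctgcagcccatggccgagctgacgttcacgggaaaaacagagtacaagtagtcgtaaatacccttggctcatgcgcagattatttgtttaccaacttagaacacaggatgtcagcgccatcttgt
Eps8l2: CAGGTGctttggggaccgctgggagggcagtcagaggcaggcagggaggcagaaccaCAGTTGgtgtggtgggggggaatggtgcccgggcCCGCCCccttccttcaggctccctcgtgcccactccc

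The Eps8l1 stretch held 1 E-box, CAATTG, beginning 180 bases before the start, and 1 CCAAT box, written on this strand as ATTGG, beginning 153 bases before it. Over the same 227 positions of 32851 promoter entries, 63.1% held an E-box and 31.8% a CCAAT box, so both are common letters in such windows. The Eps8l2 stretch held 1 GC box, read as CCGCCC, and 2 E-boxes, CAGGTG and CAGTTG, where 13.8% and 43.9% of entries held these motifs over the same 128 positions. Its GC content was 69.5%, against a median of 50.8% over all entries, while that of the Eps8l1 stretch was 47.6% against 52.0%. The stretches of these members thus shared the E-box letters and differed in base composition. Neither held the TATA box or the heat shock element core, which 11.4% and 5.91% of entries held over the longer window. A match describes letters only, and no binding was measured.

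Eps8l2 (ENSMUSG00000025504) lies on the same chromosome and strand from 141338880 to 141363020, with 12 transcripts of 371 to 3341 bases. This stereocilium tip protein was the most abundant member in nerve labelled HSF WT. Its FPKM was 29.3 in nerve labelled HSF V30M and 19.3 in nerve labelled HSF WT, with a log2 ratio of 0.58. On its single consensus coding transcript of 3191 bases, these values stand for about 1904 to 2239 and 891 to 1203 fragments, with a counting interval of the fold from 1.40 to 1.64. The interval holds the fold of 1.5, so counting error alone leaves the side of the threshold undecided. On the shortest transcript of at least 400 bases, which has 528, the fragments would number 209 and 98, and the interval would be 1.18 to 1.94.

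Eps8 (ENSMUSG00000015766), the founding member, spans 177632 bases on the minus strand of chromosome 6 from 137477245 to 137654876 and has 13 annotated transcripts of 364 to 4567 bases. Its FPKM was 14.4 in nerve labelled HSF V30M and 9.73 in nerve labelled HSF WT, with a log2 ratio of 0.52. These are about 1053 to 1609 and 503 to 883 fragments on the 3 consensus coding transcripts of 3560 to 4567 bases, and the counting interval of the fold ran from 1.33 to 1.65. On the shortest transcript of at least 400 bases, which has 460, the fragments would number 81 and 39, and the interval of 0.993 to 2.22 would include a fold of 1. Eps8 and Eps8l2 therefore cannot be told apart by their fold, since each value lies within the other's interval.

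Eps8l3 (ENSMUSG00000040600), on the plus strand of chromosome 3 from 107877229 to 107892900, had an FPKM of 0.03 in nerve labelled HSF V30M, about 1 to 2 fragments on its coding transcript of 2271 bases. It is listed at 0 in nerve labelled HSF WT, where 3 fragments would have given 0.0941. Both values are at or under the level of 3 fragments, so no fold is given and a difference was not detectable at this depth.

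Among themselves, the members changed order between the groups. Per length, Eps8l2 exceeded Eps8 by nearly the same factor in both groups, 2.03 in nerve labelled HSF V30M and 1.99 in nerve labelled HSF WT. Eps8l1 held 47.2% of the summed FPKM of the 4 members in nerve labelled HSF V30M and 2.96% in nerve labelled HSF WT. The summed FPKM was 82.8 in nerve labelled HSF V30M, 2.76-fold that of nerve labelled HSF WT, and without Eps8l1 it was 43.8 against 29.1, a 1.51-fold difference. Eps8l1 thus made up most of the difference in the family's summed level, and the remaining members differed together by a smaller fold.

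By log2 ratio, Eps8l1 held rank 3 of the 13054 protein-coding genes, Eps8l2 rank 712 and Eps8 rank 886. Ahead of Eps8l1 stood the protocadherin gene Pcdh10 and the olfactory receptor gene Olfr1033, and next after it came Them5, which encodes an acyl-CoA thioesterase. Over all 16579 genes Eps8l1 held rank 69, between the small nuclear RNA gene Gm22740 and the microRNA gene Mir1291. Of the 68 genes ahead of it, 2 were protein-coding and 64 were listed at 0 in nerve labelled HSF WT, and short RNA genes made up most of them, with 27 microRNA and 20 small nucleolar RNA genes. By the plain difference in FPKM, Eps8l1 held rank 110 of the protein-coding genes, since many abundant genes with small folds differ by more.

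The protein-coding genes nearest to Eps8l1 in level in both groups were found by Euclidean distance between the 2 values of log2(FPKM + 1). Pttg1, which encodes securin, was the closest at a distance of 0.68, with an FPKM of 27.1 in nerve labelled HSF V30M and 1.57 in nerve labelled HSF WT. Olfr1033 followed at 0.92, with 42.1 in nerve labelled HSF V30M and listed at 0 in nerve labelled HSF WT. Pcdh10 lay at 1.14, with 87.1 and 0.974 in the same order. These genes had, like Eps8l1, a low value in nerve labelled HSF WT and a far higher one in nerve labelled HSF V30M. Idh1, the cytosolic isocitrate dehydrogenase, lay at 1.16, with an FPKM of 34.0 and 3.16, and the beta globin gene Hbb-bt at 1.30, with 17.6 and 2.04. The likeness rests on 2 values per gene.

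**Figure D2:**
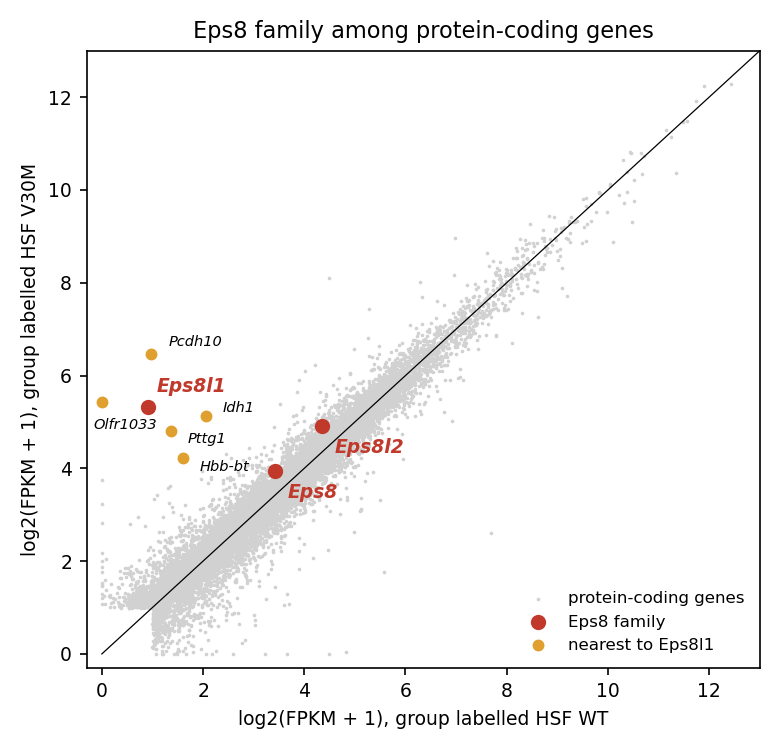
log2(FPKM + 1) of protein-coding genes with an FPKM of at least 1 in either group, with nerve labelled HSF WT on the horizontal axis and nerve labelled HSF V30M on the vertical axis. Red points are the 3 detected Eps8 family genes, orange points the 5 genes nearest to Eps8l1, grey points the other genes, and the line marks equal values; Eps8l1 lies far above the line at a log2 ratio of 4.41, while Eps8 (0.52) and Eps8l2 (0.58) lie at the edge of the main cloud.

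The genes around Eps8l1 were read for the same 50 kb on each side. Of 9 annotated neighbours, 6 had an FPKM of at least 1 in either group. Of these, 2 were higher past the fold, Tnni3 and Gm15494, and 0 were lower. Over all genes, 13.1% were higher and 12.8% lower, and the neighbours are too few to read a share from. The nearest coding gene upstream, the retinol dehydrogenase gene Rdh13, had an FPKM of 6.72 in nerve labelled HSF V30M and 6.82 in nerve labelled HSF WT. Downstream, Ppp1r12c, a regulatory subunit of myosin phosphatase, had 57.0 and 52.9. The coding genes next to Eps8l1 on either side thus differed by at most 1.08-fold between the groups. Further downstream, the slow skeletal troponin gene Tnnt1 had 2.69 and 2.11, and the axonemal dynein assembly gene Dnaaf3 had 2.07 and 1.62. The cardiac troponin gene Tnni3 had 11.6 and 7.67, a 1.51-fold difference that lies just past the fold. Atp6v0c-ps1, Gm24605 and Gm15873 were below an FPKM of 1 in both groups.

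Gm15494 runs antisense to Eps8l1 and overlaps it, with 59 of its 555 exonic bases shared with exons of Eps8l1. Its FPKM was 1.13 in nerve labelled HSF V30M and 0.258 in nerve labelled HSF WT, about 6 to 7 fragments and 1 fragment on the longer of its transcripts, of 451 bases. Its value in nerve labelled HSF WT is under that of 3 fragments, 0.776, and against that level the value in nerve labelled HSF V30M is 1.46-fold, so its fold is not read here. Counting by strand is not stated, so reads of Eps8l1 and of this antisense gene cannot be told apart where they overlap. How reads in the overlap were split between Gm15494 and Eps8l1 was not tested.

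**Figure D3:**
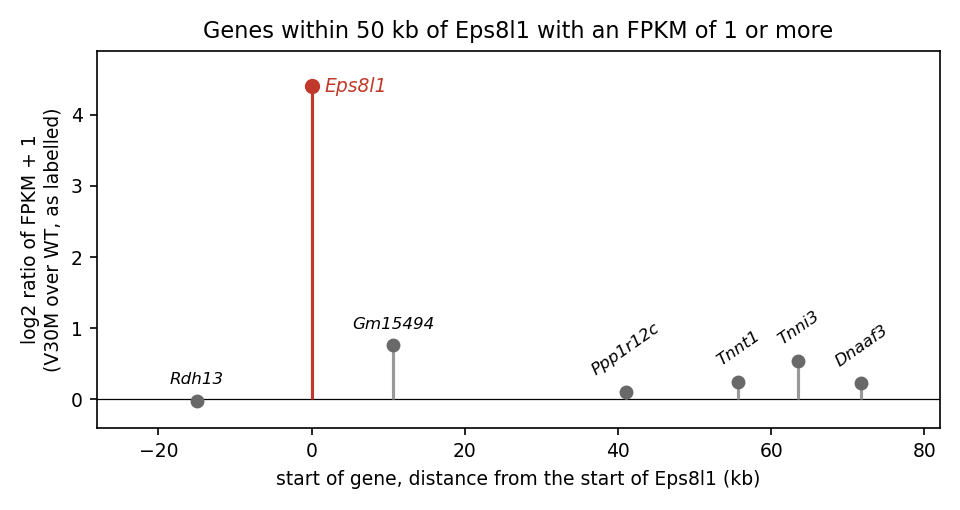
log2 ratio of FPKM + 1, HSF V30M over HSF WT as labelled, for Eps8l1 (red) and the 6 genes within 50 kb that had an FPKM of at least 1 in either group (grey), placed by the distance of their start from the start of Eps8l1. The adjacent coding genes Rdh13 and Ppp1r12c lie at -0.02 and 0.11, against 4.41 for Eps8l1. Dnaaf3, Tnnt1, Tnni3 and the antisense gene Gm15494 lie at 0.23, 0.25, 0.54 and 0.76.

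Around Eps8l2, 5 of 8 neighbours had an FPKM of at least 1 in either group and 0 were past the fold in either direction. Over all genes, 13.1% were higher and 12.8% lower, and nothing is read from a count over 5 genes. These 5 were the coding genes Deaf1 (20.0 in nerve labelled HSF V30M and 21.0 in nerve labelled HSF WT), Tmem80 (14.2 and 14.5), Taldo1 (156 and 183) and Gatd1 (11.2 and 12.1), and the noncoding gene B230206H07Rik. The latter, with 35.6 and 29.4, lies on the opposite strand and shares 1729 of its 3755 exonic bases with exons of Eps8l2, so the levels of these overlapping genes are uncertain. Drd4, Gm25725 and Gm4535 were below an FPKM of 1.

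Around Eps8, the receptor phosphatase gene Ptpro had an FPKM of 2.23 in nerve labelled HSF V30M and 2.37 in nerve labelled HSF WT, and Gm44258 was below 1. Gm44106, an annotated transcript of unsettled status with 1599 bases inside the Eps8 gene on the same strand, shares no exonic base with Eps8. It had 5.45 in nerve labelled HSF V30M and 0.208 in nerve labelled HSF WT, about 166 to 195 and 4 to 6 fragments. This 26.3-fold difference inside the Eps8 gene was larger than the 1.48-fold difference of Eps8 itself. Around Eps8l3, 4 of 10 neighbours reached an FPKM of 1, among them the glutathione transferase genes Gstm5 (28.7 and 33.8), Gstm7 (5.55 and 5.28) and Gstm6, which was past the fold with 2.66 and 1.08, although such related copies can share reads. The antisense gene 4933431E20Rik, with 12.3 and 9.36, shares 964 exonic bases with Eps8l3, which itself was at the limit of detection.

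The wider actin machinery was described by 7 lists with 95 genes, of which 81 had an FPKM of at least 1 in either group. In nerve labelled HSF V30M, 3 of these were higher past the fold (3.70%), 5 were lower (6.17%) and 73 were not past it, beside 8.32% higher and 8.32% lower over protein-coding genes, as all of these are, and 13.1% and 12.8% over all genes. Their median log2 ratio was 0.04, beside 0.00 over all genes and over protein-coding genes. The log2 ratios of these 81 genes ran from -1.44 to 0.73. Eps8 and Eps8l2 lay inside that range, and Eps8l1, at 4.41, lay above it. The family was chosen because Eps8l1 was among the largest rises, so its place above these genes is not a separate result.

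Of the 15 genes whose products signal with Eps8, 14 reached an FPKM of 1, with 0 higher, 1 lower and a median log2 ratio of -0.02. Abi1, which links Eps8 to Sos1, had an FPKM of 76.8 in nerve labelled HSF V30M and 57.4 in nerve labelled HSF WT, and Sos1, the Rac exchange factor of the complex, had 3.69 and 3.53. Rac1, the GTPase it acts on and the most abundant gene of the list, had 115 and 84.8. In the other direction, Egfr had 17.6 and 25.4 and Baiap2 had 34.4 and 47.2. These partners were present in both groups and did not pass the fold. Abi3, a relative of Abi1, was lower with 1.92 against 4.18. Baiap2l2, an epithelial relative of the bundling partner Baiap2, was below an FPKM of 1 in both groups, with 0.93 and 0.0341. It is 1 of the 15 listed genes but, being under the minimum, is not among the 14 or their counts past the fold. It was named here after its values were seen.

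The 18 genes of stereocilium and microvillus tips, the places where Eps8 and Eps8l2 are best studied, were mostly near 0, and 7 reached an FPKM of 1, with a median log2 ratio of -0.11. The unconventional myosin Myo7a was higher, with an FPKM of 18.2 in nerve labelled HSF V30M and 11.0 in nerve labelled HSF WT, and 0 were lower. Whrn and Myo15, which carry Eps8 to stereocilium tips, had 3.13 and 3.60 for Whrn and 0.06 and 0.0935 for Myo15. The most abundant was Ezr, the membrane-actin linker ezrin, with 37.0 and 32.4. The Eps8 family was thus read in a tissue that held little RNA of several of its known partners in protrusions, and Espnl and Anks4b are listed at 0 in nerve labelled HSF WT.

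**Figure D4:**
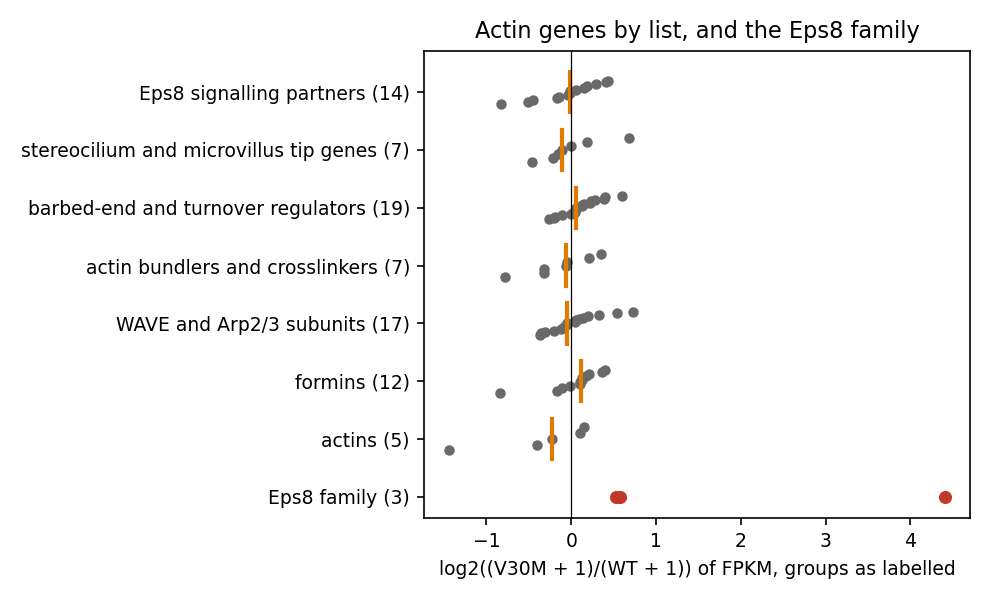
log2 ratio of FPKM + 1, HSF V30M over HSF WT as labelled, for genes of 7 actin lists and the Eps8 family with an FPKM of at least 1 in either group, 1 point per gene, with the number of genes in brackets and an orange bar at the median of each list. Eps8l1, at 4.41, lies to the right of the genes of all lists, which end at 0.73, and Eps8 and Eps8l2 lie close together at 0.52 and 0.58. The family was chosen by the rise of Eps8l1, so its place is not a separate result.

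Genes whose products act like Eps8 on filament ends or bundles were mostly not past the fold. All 19 barbed-end and turnover regulators reached an FPKM of 1, with a median log2 ratio of 0.06, and the severing protein gene Scin was the single one past the fold, with 2.75 in nerve labelled HSF V30M and 1.48 in nerve labelled HSF WT. The most abundant, gelsolin (Gsn), which also caps barbed ends, had 1786 and 1606. Of the 7 bundlers and crosslinkers, with a median of -0.06, the leukocyte plastin gene Lcp1 was lower with 18.8 and 32.9. Filamin A (Flna), with 176 and 219, was the most abundant in nerve labelled HSF WT. Actn4, with 179 and 140, was the most abundant in nerve labelled HSF V30M. Genes that share barbed-end capping or bundling with Eps8 thus held levels in both groups that were at most 1.86-fold apart.

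The 17 subunits of the WAVE and Arp2/3 complexes, which nucleate branched actin downstream of Rac, had a median log2 ratio of -0.05, with Wasf1 higher at an FPKM of 4.05 in nerve labelled HSF V30M and 2.04 in nerve labelled HSF WT, and 0 lower. Their most abundant gene, Arpc1b, had 314 and 404. Of the 13 formins, which elongate filaments at the end that Eps8 caps, 12 reached an FPKM of 1, with a median of 0.11. Fmnl1, a formin of leukocytes, was lower with 5.10 and 9.95, and the most abundant, Fmnl2, had 40.7 and 37.2. Of the 6 actins, 5 reached an FPKM of 1, with a median of -0.23, and Actb, the most abundant, had 2512 and 2262. The lower ones were skeletal muscle actin, Acta1, with 7.41 and 21.8, and smooth muscle actin, Actg2, with 1.43 and 2.21. Acta1 is also one of the skeletal muscle markers below, most of which were lower as well.

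Markers of the cell types that a nerve sample can hold were read beside the Eps8 family, since cell composition can differ between samples. Eps8l1 and Eps8l2 are mainly known from epithelia, so 20 epithelial markers were included. Of these, 6 reached an FPKM of 1, with a median log2 ratio of -0.15, and the summed FPKM of the whole list was 117 in nerve labelled HSF V30M and 98.1 in nerve labelled HSF WT. Most of the sum was Cdh1, with 88.5 and 67.1, which encodes E-cadherin and is also made by Schwann cells. The simple keratin gene Krt18 was past the fold with 1.56 and 0.751, while Krt19 had 13.9 and 17.2 and Krt7 had 6.85 and 7.21. The 14 markers below an FPKM of 1 went in both directions. Among them Cldn7 (0.90 and 0.478), Trp63 (0.58 and 0.225), Dsp (0.58 and 0.299), Elf3 (0.32 and listed at 0) and Krt8 (0.16 and 0.0403) had the higher value in nerve labelled HSF V30M, and Epcam (0.09 and 0.325), Grhl2 (0.15 and 0.363) and Krt14 (0.03 and 0.122) the lower one. Over all 20 markers, 9 were higher and 9 lower by any amount, Krt1 and Cldn4 were listed at 0 in both groups, and the median log2 ratio was 0. An epithelial part in the Eps8l1 value was not tested.

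Of the resident cells of nerve, the 9 Schwann cell markers had a summed FPKM of 8116 in nerve labelled HSF V30M and 7580 in nerve labelled HSF WT, with a median log2 ratio of 0.16 and S100b past the fold with 328 and 201. The 5 perineurial markers, with a median of 0.24, summed to 600 and 541 and were led by Itgb4 (310 and 257). Fibroblast markers numbered 6, with a median of -0.07 and sums of 2206 and 2267, led by Dcn (1331 and 1320). Endothelial markers also numbered 6, with a median of 0.11 and sums of 121 and 122, led by Pecam1 (44.9 and 56.5). In the perineurial, fibroblast and endothelial lists 0 genes were past the fold. The sums, which a few abundant genes carry, differed by less than Eps8, Eps8l2 or Eps8l1 did, but single markers such as S100b and the perineurial Lypd2 (17.9 and 11.9) differed by as much as Eps8, and their part in the members' values was not tested.

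Lists of blood and surrounding tissue differed more between the groups. Of 6 erythrocyte markers, 5 were higher in nerve labelled HSF V30M (Hbb-bs, Hbb-bt, Hba-a1, Hba-a2 and Slc4a1), with sums of 291 and 101 and Hbb-bs the most abundant at 111 and 37.1. The near-identical copies Hba-a1 and Hba-a2 can share reads. Of 7 neutrophil markers, 6 were higher (S100a8, S100a9, Ngp, Camp, Ltf and Retnlg) and Csf3r was lower, with sums of 107 and 32.3 and S100a9 the most abundant at 59.0 and 13.8. The medians of these lists were 1.40 and 1.60, and their summed levels moved in the direction of the Eps8 family, by 2.90-fold and 3.31-fold. These folds are smaller than the 44.0-fold of Eps8l1 and larger than the 1.52-fold of Eps8l2 and the 1.48-fold of Eps8. Their part in the Eps8l1, Eps8l2 and Eps8 values was not tested.

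In the opposite direction, 5 of the 6 detected skeletal muscle markers were lower (Tnnt3, Acta1, Mylpf, Ckm and Myh4). The median log2 ratio of the 6 was -1.73, and the sums over the list were 41.9 and 145. Ckm (8.97 and 43.8) led in nerve labelled HSF WT and Tnnt3 (10.9 and 22.2) in nerve labelled HSF V30M. Of 6 adipocyte markers, 3 were lower (Fabp4, Adipoq and Lep), with a median of -0.52 and sums of 1204 and 1815, led by Fabp4 (462 and 722). Of 6 macrophage markers, 2 were lower (Cd68 and C1qb), with a median of -0.48 and sums of 194 and 325. C1qb (58.7 and 139) led in nerve labelled HSF WT and C1qa (70.6 and 96.5) in nerve labelled HSF V30M. The 3 detected B cell markers were all lower (Cd79a, Cd79b and Pax5), with a median of -2.29 and sums of 1.64 and 17.9 over the list. Cd79b (0.53 and 7.16) led in nerve labelled HSF WT and Cd79a (0.65 and 7.09) in nerve labelled HSF V30M. The 2 detected T cell markers, Cd4 and Cd3e, were lower, with a median of -1.50, against -0.54 over all 5 listed, and sums of 1.73 and 7.64 over the list, led by Cd4 (0.52 and 3.88). By their sums, the skeletal muscle, adipocyte, macrophage, B cell and T cell lists were thus lower and the erythrocyte and neutrophil lists higher, with exceptions within the lists. Tnnt1, Myh1, Adgre1 and Cd3d were higher by any amount, Lipe, Plin1, Cidec, Csf1r, C1qa, Mrc1 and Alas2 were not past the fold, and Csf3r was lower. Genotype and sample composition cannot be told apart with 1 value per group.

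**Figure D5:**
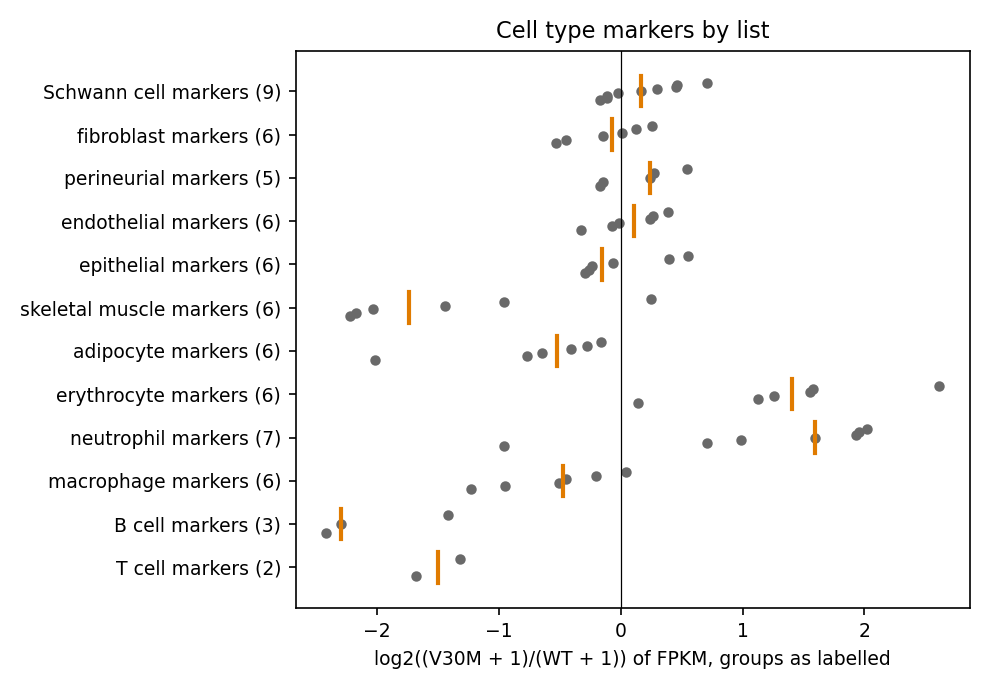
log2 ratio of FPKM + 1, HSF V30M over HSF WT as labelled, for markers of 12 cell types with an FPKM of at least 1 in either group, 1 point per gene, with the number of genes in brackets and an orange bar at the median of each list. Erythrocyte and neutrophil medians lie at 1.40 and 1.60, skeletal muscle, B cell and T cell medians at -1.73, -2.29 and -1.50, and those of the resident nerve cells between -0.07 and 0.24.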

How the data were processed

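The authors made Ion Torrent libraries of sciatic nerve RNA, and the submitters' processing notes name STAR, Cufflinks, Cuffdiff and GRCm38, which is the C57BL/6J strain. Versions, options, strand setting and annotation are not given in the sources used here. The deposited FPKM values are the authors' Cuffdiff estimates, 1 per gene and group over its libraries, written with decimal commas. The authors' columns of log2 fold change, test statistic, p-value, q-value and call were not used. From the FPKM values, linear folds and log2 ratios with a pseudocount of 1 were computed. The planned fits on values per mouse and the planned protein comparison were not run. Genes with too many alignments (23) were left out.

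The worth of 1 fragment was found on 11418 genes with a single transcript and a locus of their own, after shortening each transcript by 200 bases, within search limits set after the low values had been looked at. It was 0.0392 and 0.0461 FPKM times kilobases in the libraries labelled HSF V30M, and 0.0481 and 0.0650 in those labelled HSF WT. Positions are from GENCODE M21, which holds 50369 of the identifiers. Of the planned cell type markers, 2 are not reported here, and their lists were computed without them. The members and lists were chosen with earlier results of these data known. Named genes were the members, Ttr, Hsf1, list genes past the fold, the most abundant gene of each list, neighbours within 50 kb, the 5 nearest genes and those next in rank. The other genes named, such as Abi1, Sos1, Egfr, Baiap2, Whrn, Myo15, Lypd2, Epcam, Trp63 and the keratins, were added after their values were seen. Computation used pandas 2.3.3 and numpy 2.4.6 under Python 3.11.15, with the functions first tested on simulated data, intervals from scipy 1.17.1 and plots from matplotlib 3.10.9. Alternatives were other pseudocounts, minimum FPKM, fold and median ratio scaling.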

Additional observations from a re-analysis of the deposited data

How the results depend on the processing

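No paired analysis was possible because values per mouse are not part of this table, which also kept single mice from being left out in turn. A pseudocount cannot change which group is higher, and median ratio scaling moved every log2 fold by only -0.0035, so neither tests the direction of Eps8, Eps8l1 or Eps8l2. The log2 ratio of Eps8l1, 4.41 as reported, was 5.31 with a pseudocount of 0.1 and 5.46 with no pseudocount, the latter chosen after seeing the data, since its low value in nerve labelled HSF WT weighs more as the pseudocount shrinks. Of the members, 2 were past the fold as reported, 1 with a fold of 2 and 1 with a pseudocount of 1 added, in both cases Eps8l1 alone, and 3 with no minimum, where Eps8l3 enters on about 1 to 2 fragments.

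The number of genes past the fold, 4301 as reported, was 13545 with no minimum, 1915 with an FPKM of at least 5, 2381 with a fold of 2 and 2172 over protein-coding genes. For the actin lists it was 8 as reported, 18 with no minimum and 4 with an FPKM of at least 5. These settings are looser or stricter by construction. Of 56 comparisons of list medians, 14 moved by 0.1 or more, a size chosen here and not fixed beforehand, and 1 crossed 0, the stereocilium and microvillus list with an FPKM of at least 5 (0.0371). No T cell marker reaches that minimum. The T cell median, -1.50 as reported on 2 genes, was -0.54 with no minimum and -2.59 with a pseudocount of 0.1. The B cell median, -2.29 as reported, was -1.86 and -3.26 under these settings, and the skeletal muscle median, -1.73 as reported, was -1.20 and -1.85. Depth limits Eps8l3 and Gm15494, and for Eps8l1 the unknown transcript sets the number of fragments in nerve labelled HSF WT.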
